A study of Mus musculus with 10 samples.

Results

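Enkephalins are short opioid peptides cut from larger precursor proteins. This report follows 10 genes grouped with that system in the mouse oviduct. They are the precursors Penk (proenkephalin) and Pdyn (prodynorphin), the processing enzymes Pcsk1, Pcsk2 and Cpe, the Cpe relative Cpxm2, the delta, mu and kappa opioid receptors Oprd1, Oprm1 and Oprk1, and Mme (neprilysin), a membrane peptidase that degrades enkephalins. No enkephalin-processing role is established for Cpxm2. The genes were listed by name, and where several probe sets stand for a gene the one to be used was chosen by its mean over all 10 arrays, which ignores genotype. A probe set paired with that symbol alone was found for 9 of the 10, among 19938 genes tested, and each of the 9 had 1 such probe set. Expression of Pcsk2 was not analysed here. In the secretory pathway, prohormone convertases cut a precursor at pairs of basic residues, and Cpe then trims the basic residues left at the carboxyl end. The released peptides act on receptors coupled to inhibitory G proteins, which lower cyclic AMP, and surface peptidases end the signal. In the reproductive tract Penk is made outside neurons as well, and it has long been described as a hormone-regulated transcript.

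Whole oviducts came from prepubertal mice carrying a lacZ insertion that disrupts the progesterone receptor gene Pgr in every cell. PRKO mice are homozygous for it, and the PR+/- controls are heterozygous, so every animal carried at least 1 disrupted allele and no wild-type group was used. Mice aged 21 to 23 days received 5 IU of equine chorionic gonadotropin, which makes follicles grow, and after another 44 to 47 h the ovulatory stimulus, human chorionic gonadotropin (hCG), also at 5 IU. Tissue was taken 8 h after hCG. RNA of 3 animals was pooled per array, giving 5 arrays and 15 animals per genotype, and p-values therefore measure the spread between pools. The comparison asks what differs in oviduct RNA when no functional progesterone receptor is present at this time. Values are log2 scanner signals, on which a difference of 1 is a doubling if the scale is log2 as inferred. A gene was called at a Benjamini-Hochberg adjusted p under 0.05 over all genes in limma.

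The targeted gene went with the labels. Pgr signal was 7.27 to 7.55 on the PR+/- arrays and 6.31 to 6.39 on the PRKO arrays, a log2 difference of -1.06 ± 0.072 (SE, n = 5 against 5). Signal thus remained in PRKO, at 48.0% of the PR+/- level, and which part of the transcript the probe set reads was not examined. Correlations between arrays were 0.9945 to 0.9964 within PR+/- and 0.9877 to 0.9924 within PRKO. Cyp11a1, an ovarian steroidogenic enzyme, was high on PR+/- replicate 4 (7.04) and PRKO replicate 3 (7.10) against 3.05 to 4.68 elsewhere. Markers of the oviduct's epithelium were present in both genotypes. The summed signal of 6 multiciliated cell markers was 10.61 to 10.98 in PR+/- and 10.73 to 10.91 in PRKO, with Foxj1, the ciliogenesis factor, at means of 7.16 and 7.05, and 0 of the 6 were called. The summed signal of 5 markers listed for secretory epithelium (Pax8, Epcam, Krt8, Krt18 and Wt1) was 11.34 to 11.60 and 11.22 to 11.55. Pax8 had means of 8.51 and 8.50, and 0 of the 5 were called. Ovgp1, also listed, was not among the genes tested. The sum is weighted to Krt18 and Krt8 (PR+/- means 9.86 and 9.30), so it describes the epithelium and not secretory cells alone. The interquartile range of signal on an array was 3.37 to 3.48 in PR+/- and 3.13 to 3.42 in PRKO, and 4 of 5 PRKO arrays lay below every control array. With that range as a covariate 322 genes were called in place of 988, Penk and Cpxm2 among them. Without PR+/- replicate 4 and PRKO replicate 3 no member's call changed, the difference of Pdyn was 0.08 in place of 0.25, and that of Pcsk1, near 0, changed sign.

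Penk, the enkephalin precursor, and Cpxm2, a secreted carboxypeptidase-like protein, were lower in PRKO oviducts, and no other gene of the set was called. Penk signal in PRKO was 42.0% and Cpxm2 signal 35.8% of the PR+/- level. The opioid receptors, the second precursor and the convertase Pcsk1 had log2 differences between 0.04 and 0.25, while Cpe was lower by 0.20 and Mme higher by 0.22, none of which passed. Of the 9 measured genes, 2 fell and 0 rose. Over all 19938 genes, 4.96% were called in either direction and 3.87% were called lower. The median log2 difference was 0.05 over the 9 genes and 0.03 over all genes. Because the set was put together with results of these arrays known, the count describes these genes and is no independent evidence about the pathway.

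**Figure D1:**
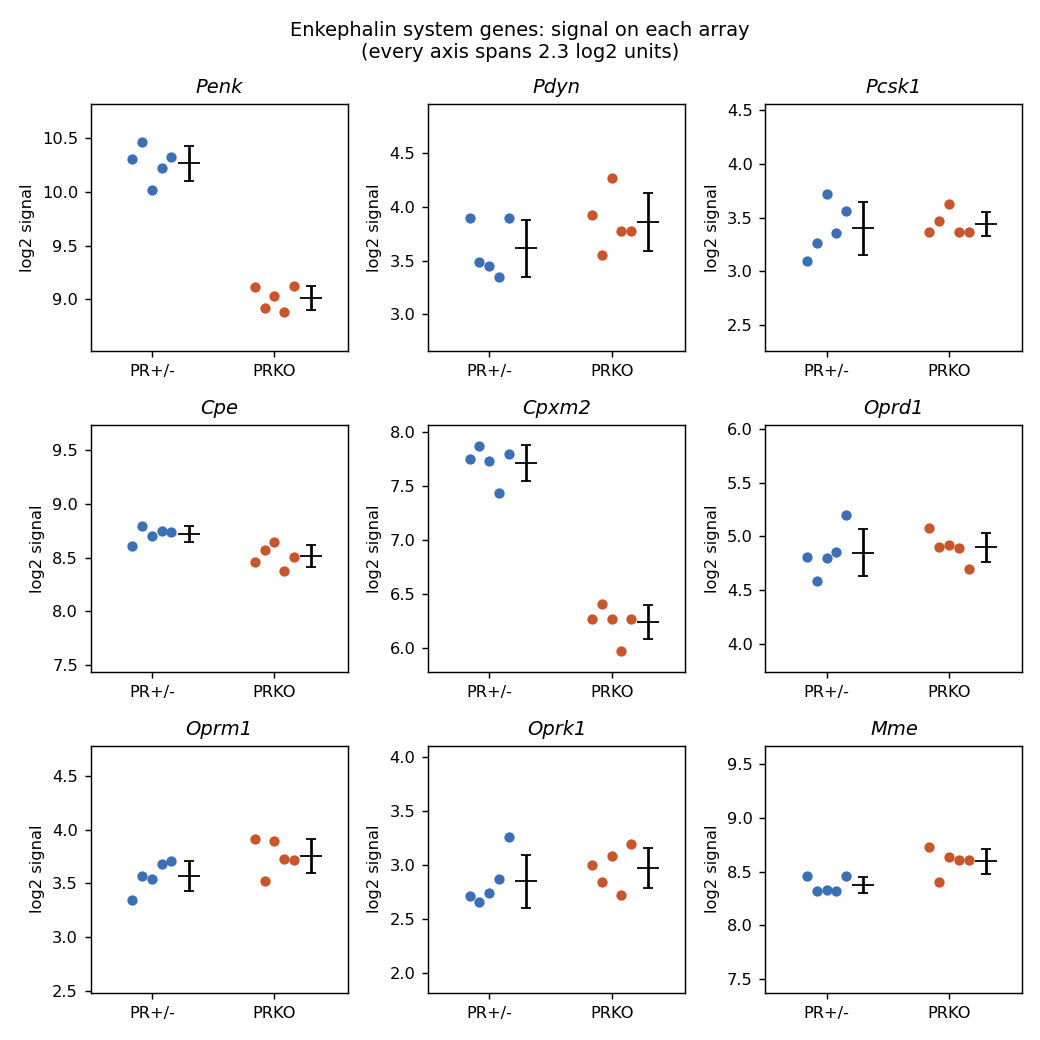
Log2 signal (y axis) of the 9 measured genes on the 5 PR+/- (blue) and 5 PRKO (orange) arrays, with the mean and SD of each group in black beside the points. Every panel spans the same log2 range: Penk and Cpxm2 separate by genotype without overlap, and the other 7 genes overlap.

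Penk encodes proenkephalin, which holds several copies of Met-enkephalin and 1 of Leu-enkephalin. The gene lies on chromosome 4 from 4133536 to 4138815 in GRCm38. Penk signal on PR+/- replicates 1 to 5 was 10.31, 10.46, 10.02, 10.22 and 10.32, and on PRKO replicates 1 to 5 it was 9.11, 8.92, 9.04, 8.88 and 9.13. The lowest control pool, PR+/- replicate 3, lay 0.89 above the highest PRKO pool, replicate 5, so the genotypes did not overlap. The group means were 10.27 ± 0.16 and 9.01 ± 0.11 (SD, n = 5 each). Penk thus fell by 1.25 ± 0.090 on the log2 scale (95% interval -1.45 to -1.06, limma adjusted p = 1.36e-06), 2.38-fold. Ordered by log2 difference from the deepest fall, Penk stood at place 30 of 19938. In bulk tissue, fewer Penk-expressing cells and less Penk RNA per cell cannot be told apart.

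Pdyn encodes prodynorphin, the precursor of dynorphins, which contain a Leu-enkephalin core and bind the kappa receptor. Pdyn signal was 3.35 to 3.90 in PR+/- (median 3.48) and 3.55 to 4.27 in PRKO (median 3.78), and 2 of the 5 PRKO pools lay above every control pool. Its log2 difference of 0.25 ± 0.14 did not pass (95% interval -0.05 to 0.55, limma adjusted p = 0.333). The difference was 0.14 without PRKO replicate 3, the highest pool, and Pdyn is among the genes whose dim probe sets could hardly show a fall. After quantile normalization the Pdyn difference was 0.148, and with the interquartile range of each array as covariate it was 0.151.

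Cpxm2 was the member with the deepest fall. It belongs to the metallocarboxypeptidase family of Cpe, but its protein lacks residues that the active enzymes use for catalysis, and no enkephalin-processing role is established for it. The gene spans 132032687 to 132154765 on chromosome 7 of GRCm38. Its signal was 7.75, 7.87, 7.73, 7.44 and 7.80 on PR+/- replicates 1 to 5 and 6.26, 6.41, 6.27, 5.97 and 6.27 on PRKO replicates 1 to 5. The groups were 1.03 apart at their closest, and replicate 4 was the lowest pool in each genotype. Cpxm2 fell by 1.48 ± 0.099 (95% interval -1.69 to -1.27, limma adjusted p = 1.00e-06), which is 2.80-fold and place 16 of 19938. Penk and Cpxm2 were also 2 of the genes with no overlap downward, a pattern seen for 5.06% of all genes.

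The stretch upstream of every annotated Cpxm2 start is shown because Cpxm2 is the called gene of this set for which the RefSeq promoter table (GRCm38.p6) holds a window. It is chr7:132154766-132154991 on the minus strand, 226 bases with 61.5% G and C, and capitals mark GC boxes (GGGCGG on either strand).

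Cpxm2: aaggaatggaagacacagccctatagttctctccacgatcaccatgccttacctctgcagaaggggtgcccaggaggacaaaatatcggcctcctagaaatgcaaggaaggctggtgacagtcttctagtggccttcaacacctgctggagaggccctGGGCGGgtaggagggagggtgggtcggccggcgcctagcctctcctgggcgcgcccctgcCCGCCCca

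Windows from 250 bases before to 50 after a start were held for 7 of the 10 genes, 12 windows in all, and not for Penk, Oprk1 and Cpe. None of the 12 contained TGTTCT on either strand, the hexamer that progesterone and glucocorticoid receptors recognise, which 19.0% of all 32851 windows contained. The full palindrome of these receptors, which holds that hexamer on each strand around 3 free bases, was in 0 of the 12 and in 3 of all windows. GC boxes were in 7 of the 12 and in 35.7% of all windows. The absence of these letters from a window says nothing of the receptor's action elsewhere. The cyclic AMP response element TGACGTCA, found in 1.79% of windows, was in that of Pcsk1, and the AP-1 site TGACTCA, in 5.20% of windows, was in 2 overlapping windows of Mme. They are shown because these are response elements of pathways downstream of opioid and other G protein-coupled receptors, with the elements in capitals (the Mme stretch reads TGACTCA on the opposite strand). The Pcsk1 stretch is chr13:75089768-75089797 and the Mme stretch chr3:63295869-63295898, each on the plus strand.

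Pcsk1: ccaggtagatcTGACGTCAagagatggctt

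Mme: aatcccactggTGAGTCAccggagagcgaa

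Among the enzymes that process proenkephalin, Cpe was bright and Pcsk1 dim. Cpe, which removes the basic residues exposed by convertase cleavage, had signals of 8.60, 8.80, 8.70, 8.75 and 8.74 in PR+/- and 8.46, 8.57, 8.65, 8.37 and 8.51 in PRKO. 4 of the 5 PRKO pools were below every control pool, and PRKO replicate 3 reached into the control range. The log2 difference of -0.20 ± 0.074 did not pass over all genes (95% interval -0.36 to -0.05, limma unadjusted p = 0.0154, adjusted p = 0.132). Pcsk1, the convertase that makes the first cuts, had signals of 3.10 to 3.72 in PR+/- (median 3.36) and 3.37 to 3.63 in PRKO (median 3.37). Its log2 difference was 0.04 ± 0.11 (95% interval -0.20 to 0.27, limma adjusted p = 0.866), and all 5 PRKO pools lay within the control range.

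None of the opioid receptors was called. Oprd1, the delta receptor and the one that binds enkephalins with highest affinity, had signals of 4.58 to 5.19 in PR+/- (median 4.81) and 4.70 to 5.08 in PRKO (median 4.90), with all PRKO pools inside the control range and a log2 difference of 0.05 ± 0.11 (95% interval -0.18 to 0.28). Oprm1, the mu receptor, which enkephalins also bind, was 3.35 to 3.71 in PR+/- (median 3.57) and 3.52 to 3.91 in PRKO (median 3.73), and 4 of 5 PRKO pools lay above every control pool. Its difference was 0.19 ± 0.094 (95% interval -0.02 to 0.39, limma adjusted p = 0.274). The Oprm1 difference was smaller after quantile (0.086) and cyclic loess normalization (0.087), and with the interquartile range of each array as covariate (0.062). Oprk1, the kappa receptor preferred by dynorphins, was 2.66 to 3.26 in PR+/- and 2.73 to 3.19 in PRKO, with a difference of 0.12 ± 0.12 (95% interval -0.14 to 0.38). For Oprk1 the same 3 alternatives gave 0.024, 0.018 and -0.15. The intervals of the receptors are narrow on the signal scale, but a dim probe set understates a change in RNA.

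How dim these probe sets are can be read against 1027 olfactory receptor genes, a class with little expression outside the nose, picked as a reference after the values were seen. The mean signal of those genes had a median of 2.72 and a 95th percentile of 4.15. Pdyn (3.74), Oprm1 (3.66), Pcsk1 (3.42) and Oprk1 (2.91) had means below that percentile, Oprd1 (4.87) above it, and Penk, Cpe, Mme and Cpxm2 far above it. For the 4 dim genes, the arrays therefore bear on a large rise in PRKO but hardly on a fall.

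Mme, the neutral endopeptidase that cleaves enkephalins at the cell surface, had a higher mean in PRKO, a difference that did not pass. Its signal was 8.46, 8.32, 8.32, 8.32 and 8.46 in PR+/- and 8.72, 8.40, 8.64, 8.60 and 8.61 in PRKO, so 4 of 5 PRKO pools lay above every control pool and PRKO replicate 2 lay among the controls. The log2 difference was 0.22 ± 0.077 (95% interval 0.05 to 0.38, limma unadjusted p = 0.0126, adjusted p = 0.119). Over the alternatives tried its adjusted p ranged from 0.0502 to 0.578.

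**Figure D2:**
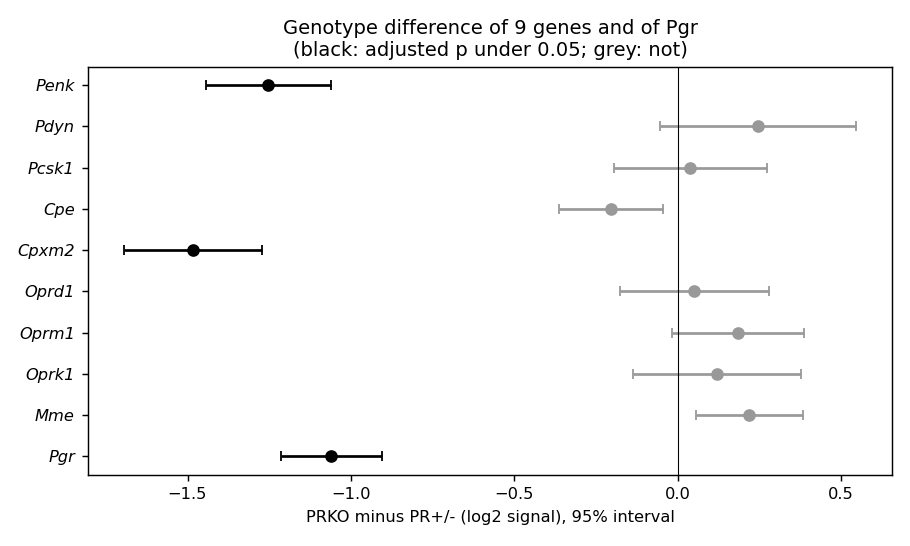
Log2 difference PRKO minus PR+/- (x axis, point) with its 95% interval (bar) for the 9 measured genes of the set and for Pgr. Penk, Cpxm2 and Pgr (black) were called, with differences of -1.25, -1.48 and -1.06, and the others (grey) lay between -0.20 and 0.25.

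Ratios within an array set the 4 bright members against each other. The pairs were chosen after the values were seen, and with groups of Penk and Cpxm2 that do not overlap the direction of their ratios to Cpe and Mme was fixed by that choice, so these are given as a description with no test. The log2 ratio of Penk to Cpe differed by -1.05 and that of Penk to Mme by -1.47. PRKO oviducts thus had a 2.07-fold lower ratio of precursor to trimming enzyme signal and a 2.77-fold lower ratio of precursor to degrading enzyme signal. The ratio of Cpxm2 to Cpe was 2.43-fold lower and that of Cpxm2 to Mme 3.25-fold lower. The log2 ratio of Cpe to Mme differed by -0.42, and neither gene was called alone. The log2 ratio of Penk to Cpxm2, which fell together, had a difference of 0.23 (two-sided exact permutation of the 10 arrays, p = 0.0873, smallest possible 0.00794), which did not pass as deposited. Over 12 alternatives the unadjusted exact permutation p of that pair ranged from 0.0238 to 0.135, and it stayed above 0.05 in 8. The 4 under 0.05 were quantile (0.0397) and cyclic loess normalization (0.0317), and leaving out PR+/- replicate 4 (0.0397) or PRKO replicate 2 (0.0238).

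Penk and Cpxm2 lay closer to each other across arrays than either did to the other members, and a step between the genotypes is common to their profiles. Since both were called lower and the other 7 were not called, that closeness follows largely from the step and is a description only. The measure was the root mean square difference between profiles after each gene's mean was subtracted, over the 10 arrays, in log2 units. It was 0.19 between Penk and Cpxm2 and 0.54 to 0.78 between Penk and the other 7. Over all named genes, the 5 profiles nearest to Penk were those of Hif3a, a hypoxia-inducible factor subunit (0.10), Sult1a1, a phenol sulfotransferase (0.12), Actg2, the visceral smooth muscle gamma actin (0.13), Cdkn1c, the cyclin-dependent kinase inhibitor p57 (0.13), and Galnt15, of the mucin-type glycosyltransferase family (0.16). Their PRKO signal was 40.2%, 39.5%, 43.5%, 47.2% and 46.6% of the control level. The profiles nearest to Cpxm2 were those of Kcnj8, the pore subunit of an ATP-sensitive potassium channel (0.11), Hif3a (0.12), Errfi1, an inhibitor of the epidermal growth factor receptor (0.15), Penk (0.19) and Sult1a1 (0.20). Kcnj8 was at 36.9% of its control signal and Errfi1 at 32.1%.

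**Figure D3:**
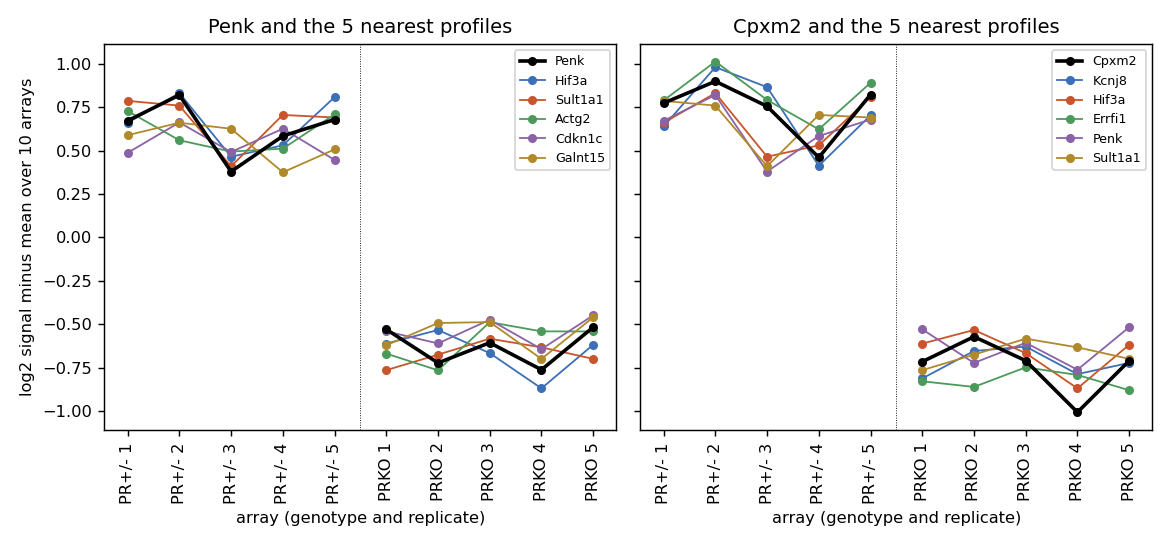
Log2 signal minus each gene's mean over 10 arrays (y axis) on every array (x axis), for Penk (left, black) and Cpxm2 (right, black) and the 5 genes with the nearest profiles (colours); lines only join points of 1 gene. All profiles share a step between the genotypes, and the root mean square distances to Penk run from 0.10 to 0.16 and to Cpxm2 from 0.11 to 0.20.

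Markers of smooth muscle moved with Penk and Cpxm2. Each of 7 measured smooth muscle markers fell, and their summed signal was 13.21 to 13.36 on the PR+/- arrays and 12.37 to 12.71 on the PRKO arrays, a difference of -0.69 on the log2 scale. Relative to that sum on the same array, Penk was lower by 0.56 and Cpxm2 lower by 0.79 in PRKO, so the sum fell less than either gene. The sum is weighted to the brightest markers, such as Acta2 (PR+/- mean 12.27, log2 difference -0.60), and single markers differed. Desmin (Des) had a log2 difference of -1.51, a deeper fall than that of Penk or Cpxm2, and the other 6 markers lay between -1.20 (Actg2) and -0.46 (Smtn). The part of the muscle markers in the fall of Penk and Cpxm2 was not tested. Of 6 fibroblast markers 1 fell, Pdgfra (-0.39 ± 0.097), and 5 had lower means in PRKO. Lum went the other way, with a log2 difference of 0.37 ± 0.12 that did not pass (limma adjusted p = 0.0887). The summed signal of the fibroblast list was 12.69 to 12.90 in PR+/- and 12.57 to 12.76 in PRKO.

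Of 14 neuronal markers measured, none was called and 2 had lower means in PRKO, and their summed signal was 8.05 to 8.25 in PR+/- and 8.04 to 8.35 in PRKO. In PR+/-, 8 of the 14 had means below the olfactory 95th percentile of 4.15, where a fall could hardly show. The 3 Schwann cell markers measured were not called either, with log2 differences of 0.32 for Sox10, 0.54 for S100b and 0.04 for Foxd3. Ovarian markers gave 0 of 8 called, leukocyte markers 0 of 5 and neutrophil markers, listed because neutrophils carry Mme, 0 of 5. In PR+/-, 5 of the 8 ovarian and 3 of the 5 neutrophil markers had means below 4.15. With 4.96% of all genes called, 0 called among so few markers says little. Of the other lists, 2 of 5 endothelial and 2 of 4 mesothelial markers fell. Among 5 mast cell markers 1 rose, Kit (0.39 ± 0.10, limma adjusted p = 0.0476), while 2 had lower means in PRKO. In PR+/-, 3 of these 5 had means below 4.15. Markers listed for multiciliated cells and secretory epithelium are given above.

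**Figure D4:**
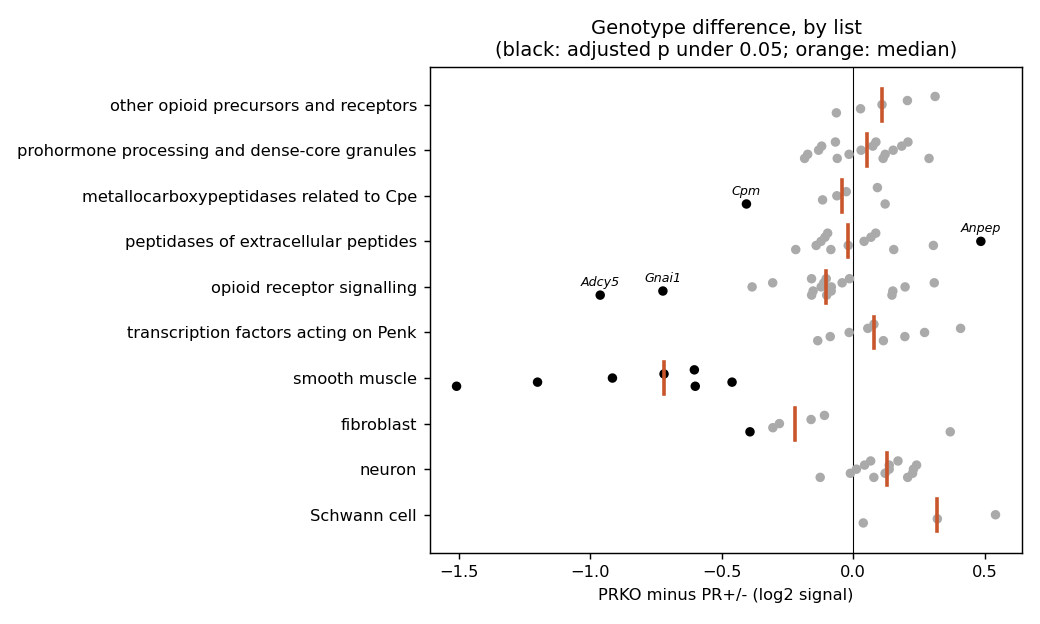
Log2 difference PRKO minus PR+/- (x axis) of each gene (points; black if called) in 6 lists of the wider opioid pathway and 4 marker lists (y axis), with list medians in orange. All 7 smooth muscle markers lie to the left of 0, while the pathway lists have medians between -0.10 and 0.11.

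The wider pathway was described through 6 lists with 68 measured genes of 72 listed. In these, 3 fell, 1 rose and 64 did not pass, or 5.88% called beside 4.96% of all genes, and their median log2 difference was -0.02. Of the other precursors and receptors, 0 of 5 were called: Pomc, the source of beta-endorphin, had a log2 difference of 0.11, Pnoc, the nociceptin precursor, 0.31 ± 0.11 (limma adjusted p = 0.121), and Oprl1, the nociceptin receptor, 0.21. Of 16 genes for prohormone processing and dense-core granules, 0 were called, among them Furin (-0.17), Pcsk6 (0.29), Pam, the amidating enzyme (-0.13), and the granins Chga (0.15) and Chgb (0.11).

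Among 6 relatives of Cpe, 1 fell. Cpm, a membrane carboxypeptidase, was at 5.24, 4.89, 4.70, 4.94 and 4.96 in PR+/- and at 4.59, 4.65, 4.57, 4.67 and 4.21 in PRKO. Its groups did not overlap, but by a margin smaller than the spread within either. The difference of -0.41 ± 0.11 had a limma adjusted p of 0.0476, which rose above 0.05 in 13 of 22 alternatives, and was -0.18 (adjusted p = 0.580) with the interquartile range of each array as a covariate. The closest relative of Cpxm2 in the list, Cpxm1, had a log2 difference of -0.03, and Aebp1, another carboxypeptidase-like protein without clear activity, one of -0.12.

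Among 13 peptidases of extracellular peptides, 1 rose. Anpep, aminopeptidase N, which removes the first tyrosine of enkephalins, was at 9.15, 8.94, 9.05, 9.39 and 9.53 in PR+/- and at 9.85, 9.72, 9.78, 9.74 and 9.41 in PRKO. Apart from PRKO replicate 5, the knockout pools lay above every control pool. Anpep rose by 0.49 ± 0.12 (limma adjusted p = 0.0270), and the call was lost in 9 of 23 alternatives, with an adjusted p of up to 0.170. The cytosolic aminopeptidase gene Npepps had a log2 difference of -0.22 (limma adjusted p = 0.0887), and Ace, angiotensin-converting enzyme, one of -0.14.

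Of 19 genes for opioid receptor signalling, 2 fell and 0 rose, and the list's median was -0.10. Adcy5, an adenylate cyclase that inhibitory G proteins restrain, was at 7.40, 7.36, 7.39, 7.10 and 7.41 in PR+/- and at 6.21, 6.55, 6.40, 6.32 and 6.38 in PRKO. Gnai1, an inhibitory G protein alpha subunit, was at 7.98, 7.84, 8.07, 8.03 and 7.92 in PR+/- and at 7.19, 7.39, 7.32, 7.07 and 7.26 in PRKO. For each gene every PRKO pool lay below every control pool. Adcy5 fell by 0.96 ± 0.086 (1.95-fold, limma adjusted p = 1.08e-05) and Gnai1 by 0.72 ± 0.080 (1.65-fold, limma adjusted p = 7.35e-05). Both genes serve many receptors besides those for opioids. Smooth muscle markers fell on the same arrays, as given above, and their part here was not tested. The related Gnai2 and Gnai3 had log2 differences of -0.16 and -0.10, and the arrestins Arrb1 and Arrb2 -0.10 and -0.08. Rgs9, a regulator of G protein signalling, had one of -0.38 ± 0.11 (limma adjusted p = 0.0542). Of the 19 genes, 15 had lower means in PRKO. Kcnj3 and Kcnj6 went the other way, with differences of 0.31 ± 0.14 and 0.20 ± 0.064 (limma adjusted p = 0.224 and 0.0959). Both are among 5 of the 19 whose PR+/- means lay below the olfactory 95th percentile of 4.15.

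None of 9 transcription factors known to act on Penk was called. The arrays measure the RNA of these factors 8 h after hCG and not their activity. Creb1, which binds the cyclic AMP response element of the Penk promoter, had a log2 difference of -0.01, its relative Crem one of 0.08 and the glucocorticoid receptor gene Nr3c1 one of 0.06. The immediate early genes Fos and Fosb had differences of 0.27 ± 0.18 and 0.41 ± 0.21 (limma adjusted p = 0.409 and 0.277), with wider errors than the other members of the list.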

How the data were processed

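Per the labels, RNA of 10 oviduct pools was biotin-labelled with an Affymetrix whole-transcript kit. The submitters' processing notes name Partek as the software; its version and settings are not stated in the labels. The table deposited by the authors holds 1 value per probe set (35557 rows) on a log2 scale, inferred from its range of 1.09 to 13.6. Array medians were alike and nothing was normalized again, although 4 of 5 PRKO arrays had a narrower interquartile range than every control array. A table of the platform's annotation paired 21789 rows with 1 symbol, 1621 with several and left 12147 unnamed. Among several probe sets of a gene (999 genes) the brightest was used. Genotypes were compared across all 19938 genes with limma 3.58.1 in R 4.3.3 (lmFit and eBayes), Benjamini-Hochberg adjusted. The procedure was tested on simulated data. No filter on dim signal was applied, since the table has no detection values. The number of arrays limits the precision. Values with ± are SE of a log2 difference unless SD is stated.

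Genes named were the members, Pgr, called genes of 6 pathway lists, and the 5 nearest profiles of each called member, without predicted loci, olfactory and vomeronasal receptors or small RNAs. Uncalled genes of the lists and single markers were picked after their values were seen. Members and lists were chosen with earlier results of these data known. Sequences are RefSeq's (GRCm38.p6). Alternatives changed normalization, dim-gene filter, probe set summary, moderation, array weights, covariates, block or arrays; those for ratios and list genes were added after the values were seen.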

Additional observations from a re-analysis of the deposited data

How the results depend on the processing

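The calls and directions of Penk, Cpxm2 and Pgr held in all 23 alternatives, with log2 differences of -1.33 to -1.19, -1.56 to -1.42 and -1.10 to -1.02, and 2 members were called in each. Cpe and Mme kept their direction, uncalled, in all 23. Dim genes could not be fitted where the dimmest 30% or 50% were removed. Differences near 0 changed sign. Pcsk1 was -0.068 after quantile and -0.063 after cyclic loess normalization, -0.024 with the interquartile range of each array as covariate, -0.020 without PR+/- replicate 4 and PRKO replicate 3, and -0.038 to 0.117 when 1 array was left out. Oprd1 was -1.68e-04 after cyclic loess normalization and -0.015 to 0.138 when 1 array was left out, and Oprk1 -0.15 with the interquartile range as covariate. Over all genes 322 were called with that covariate, 562 without PR+/- replicate 4 and PRKO replicate 3, and 581 to 1165 when 1 array was left out, against 988; the fewest were without PR+/- replicate 1 (581) and replicate 2 (598). Of the pathway genes 2 were called, against 4, with every probe set as a row, with the covariate and with the replicate block, and 2 to 6 when 1 array was left out (2 without PR+/- replicate 1 or 2 or PRKO replicate 1 or 3); Adcy5 and Gnai1 were called in all 23. Same-numbered arrays were not treated as pairs, since the correlation of their deviations (-0.01 to 0.16) was over 0.1 in 4 of 5 pairs and not in all, and 5 of 10 arrays were nearest to their own number. The replicate block gave 1042 called genes and an adjusted p of 6.27e-05 for Penk, and ended the calls of Cpm and Anpep (adjusted p = 0.0522 and 0.0597).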
